A study of Mus musculus with 8 samples.

Results

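The genes described here encode 9 secreted or shed signals of epithelial cells and 1 enzyme: the interleukin-6 family cytokines *Il6*, *Il11* and *Lif*, the chemokines *Cxcl1*, *Cxcl5*, *Cxcl16*, *Ccl2* and *Ccl20*, the macrophage growth factor *Csf1*, and *Ptgs2*, which encodes the inducible cyclooxygenase. They were chosen by name, and all 10 were found among the 37310 genes of the count table. They were measured by RNA-seq in NMuMG cells, a normal mouse mammary gland epithelial line grown with 10% serum and 10 μg/ml insulin. Both genotypes, control cells and cells labelled as a knockout (KO) of the long non-coding RNA *Lnc-Nr6a1*, were left untreated or exposed to TGFβ1 at 10 ng/ml during 2 h, with 2 libraries in each of the 4 groups. The deletion, made with CRISPR/Cas9 guides in the promoter and first exon, was obtained in clones grown from sorted single cells, so the KO libraries may represent a single clone, and whether the control cells were a clone was not given in the sources used here. The study's methods call the 2 libraries of a group biological replicates.

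TGF-β acts through receptors that activate SMAD transcription factors, and it also activates MAP kinase and other branches in epithelial cells, where prolonged exposure leads to epithelial-mesenchymal transition. IL-6, IL-11 and LIF signal through receptors that share the gp130 chain, JAK kinases and STAT3. The chemokines recruit leukocytes through G protein-coupled receptors, CSF1 sustains macrophages, and PTGS2 makes the precursor of prostaglandins. Messenger RNAs of this kind are often induced fast and degraded fast.

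The libraries held between 4297832 and 13574397 counts. Counts of the deleted gene *Lnc-Nr6a1* were 3 and 14 in untreated control libraries, whose totals were 7871090 and 7800602. They were 11 and 7 in untreated libraries labelled KO, whose totals were 4297832 and 7181737. The deleted gene was thus not lower in these KO libraries, and the labels of the untreated libraries were not borne out by it. After TGF-β it had 25 and 35 counts in control libraries and 0 in both libraries labelled KO, although this gene overlaps *Nr6a1* on the other strand and the strand setting of the counting was not given. Keratins 8, 18 and 19, *Cdh1* and *Ocln* were expressed in all libraries, whereas the epithelial genes *Epcam*, *Cldn3*, *Cldn7* and *Esrp1* had at most 2 counts in any library. Of 11 leukocyte markers, the defining genes *Ptprc*, *Itgam*, *Adgre1*, *Cd3e* and *Tyrobp* had at most 2 counts in any library, and *Cd14*, with 444 to 2294 counts, carried almost all of the summed level of 99.8 to 185 CPM. Of the 10 epithelial markers 6 were tested by edgeR. *Krt8* and *Krt18* were 2 of 6 called higher with TGF-β in control cells, beside 4.69% of all tested genes. Their changes were 0.65 and 0.96 on the log2 scale (adjusted p = 0.0472 and 0.0295), and 0.58 and 0.48 in KO cells (adjusted p = 0.0792 and 0.229). *Cdh1*, 1 of 6, was called higher in KO than in control cells after TGF-β by 0.61 (adjusted p = 0.0433), beside 8.47% of all tested genes. Only 2 leukocyte, 1 fibroblast and 0 endothelial markers were tested, and edgeR called 0 of them in the 4 comparisons. Of all tested genes it called 9.16% and 6.82% for TGF-β in control and KO cells and 1.83% and 15% between untreated and treated genotypes. An unadjusted p under 0.05 was found for 1 leukocyte marker with TGF-β in control cells and 2 in KO cells, beside 26.8% and 22.7% of all tested genes. The summed fibroblast markers ranged from 0.797 to 4.85 CPM and the endothelial markers from 0 to 0.847 CPM. In bulk RNA, fewer cells of a type and less RNA per cell cannot be told apart.

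The libraries of TGF-β-treated cells stood apart for these genes in a way that the group labels did not follow. The 10 genes together made up 0.235% of the counts in replicate 1 of the TGF-β-treated control cells and 0.235% in replicate 2 of the TGF-β-treated KO cells. In the remaining treated libraries they made up 0.0673% in control replicate 2 and 0.0247% in KO replicate 1, and in untreated libraries 0.0437 to 0.0599%. Levels are therefore given library by library, and fits with a treated library left out stand beside the results that they move. Levels are CPM, read counts scaled to the library size with TMM factors, and log2 fold changes with their standard errors and adjusted p-values come from edgeR's quasi-likelihood test over all 13028 genes that passed the filter on low counts. A gene was called at an adjusted p under 0.05 and a log2 change beyond 0.5.

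**Figure D1:**
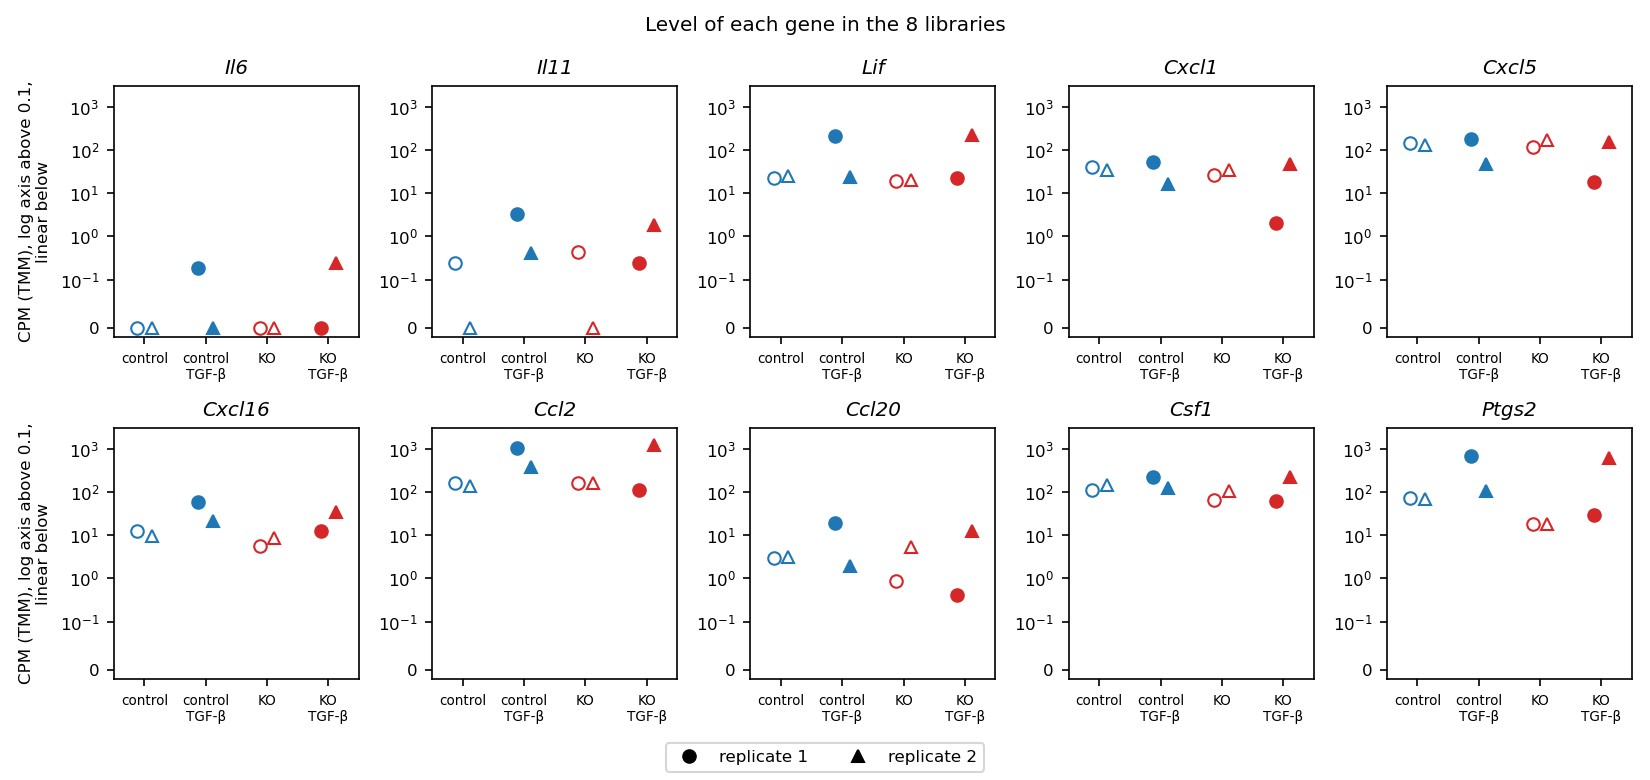
Level of each of the 10 genes in the 8 libraries, in CPM on an axis that is logarithmic above 0.1 and linear below it. Circles are replicate 1 and triangles replicate 2, open symbols are untreated and filled symbols TGF-β-treated libraries, blue control and red KO. In the treated groups the higher point is replicate 1 in control cells and replicate 2 in KO cells for every gene, for example 671 and 107 CPM of *Ptgs2* in control cells and 28.9 and 611 CPM in KO cells.

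Promoter sequences are shown for 4 of the 10 genes, *Ptgs2*, *Cxcl1* and *Ccl20*, whose treated KO libraries lay farthest apart, and *Lif*, whose treated control libraries lay farthest apart on the log2 CPM scale with a prior count of 2. They are the 250 bases before the transcript start from RefSeq on GRCm38.p6, which held 7 of the 10 genes (*Cxcl5*, *Cxcl16* and *Ccl2* were not among them), and capitals mark matches to a transcription factor motif.

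*Ptgs2* (chr1:150099781-150100030, plus strand): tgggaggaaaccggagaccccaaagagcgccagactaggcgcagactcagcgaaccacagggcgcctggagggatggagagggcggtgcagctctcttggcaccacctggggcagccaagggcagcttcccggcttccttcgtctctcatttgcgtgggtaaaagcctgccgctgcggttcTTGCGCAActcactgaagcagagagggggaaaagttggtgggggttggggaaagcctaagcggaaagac
*Cxcl1* (chr5:90890995-90891244, plus strand): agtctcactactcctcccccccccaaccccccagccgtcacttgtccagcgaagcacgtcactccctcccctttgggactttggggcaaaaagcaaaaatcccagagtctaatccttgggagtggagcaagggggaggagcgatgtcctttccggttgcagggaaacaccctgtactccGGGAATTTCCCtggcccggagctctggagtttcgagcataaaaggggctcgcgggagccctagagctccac
*Ccl20* (chr1:83116516-83116765, plus strand): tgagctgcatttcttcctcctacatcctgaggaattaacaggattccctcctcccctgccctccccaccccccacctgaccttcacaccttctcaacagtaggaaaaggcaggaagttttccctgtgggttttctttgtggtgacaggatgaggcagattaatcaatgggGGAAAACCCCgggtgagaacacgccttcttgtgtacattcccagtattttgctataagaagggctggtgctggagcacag
*Lif* (chr11:4257318-4257567, plus strand): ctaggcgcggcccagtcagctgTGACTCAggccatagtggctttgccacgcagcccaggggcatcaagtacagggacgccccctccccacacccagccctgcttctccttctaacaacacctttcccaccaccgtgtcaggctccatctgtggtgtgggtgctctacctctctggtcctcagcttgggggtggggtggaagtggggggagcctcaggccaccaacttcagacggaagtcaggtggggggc

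Both strands were searched for the AP-1 site TGANTCA, the SMAD palindrome GTCTAGAC, the SMAD half-site CAGACA, the cyclic AMP response element TGACGTCA, the C/EBP site TTGCNNAA, TATAAA and the NF-κB consensus. The capitals in *Ptgs2* are a C/EBP match 62 bases before the start, a motif found in 9.56% of 32851 promoter windows of the same length. In *Cxcl1* and *Ccl20* they are matches to the NF-κB consensus, found in 3.90% of windows. The *Cxcl1* stretch matched on both strands with an offset of 1 base, 62 and 61 bases before the start, and the *Ccl20* match lay 71 bases before the start. *Lif* held an AP-1 match 222 bases before the start, a motif of 6.75% of windows. Among the members not printed, *Il6* matched AP-1, C/EBP and NF-κB, *Csf1* matched NF-κB, and 1 of the 2 *Il11* entries matched AP-1. None of the 8 entries held either SMAD motif, the cyclic AMP response element or TATAAA, which were found in 0.167%, 17.1%, 1.55% and 12.4% of windows. These matches describe letters in the window and say nothing of binding.

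*Il6* encodes the founding member of its cytokine family. It was at the limit of detection, with 2 counts in replicate 1 of the TGF-β-treated control cells, 3 counts in replicate 2 of the TGF-β-treated KO cells and 0 in the other 6 libraries. It did not pass the filter on low counts, and no fold change is given, since no library exceeded the 3 counts that an observed 0 allows.

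*Il11* encodes a cytokine of stromal and epithelial cells and is a known TGF-β-responsive gene in several cell types. It had 2 and 0 counts in untreated control cells, 35 and 4 after TGF-β, 2 and 0 in untreated KO cells, and 3 and 23 after TGF-β. Only 1 library of each treated group exceeded the untreated libraries by more than a few counts, and the gene passed the filter through these libraries. It was not called by edgeR's quasi-likelihood test, with adjusted p = 0.155 in control and 0.427 in KO cells.

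*Lif* encodes leukemia inhibitory factor. It measured 22.4 and 25.0 CPM in untreated control cells, 213 and 23.3 CPM after TGF-β, 19.4 and 19.7 CPM in untreated KO cells, and 22.8 and 218 CPM after TGF-β. One treated library of each genotype was about an order of magnitude above the untreated libraries, at 8.97 times their mean in control replicate 1 and 11.2 times in KO replicate 2. The other treated libraries stayed at 0.981 and 1.17 times the untreated mean. The fitted log2 changes of 2.32 (SE 1.03) in control cells and 2.62 (SE 1.07) in KO cells were not called, with adjusted p = 0.187 and 0.184. Without control TGF-β replicate 1 the log2 change in control cells was -0.042, and without KO TGF-β replicate 2 that in KO cells was 0.25.

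*Cxcl1* and *Cxcl5* encode neutrophil attractants that bind CXCR2, and both lie on chromosome 5 (NCBIM37 annotation, 91320267 to 91322141 and 91188325 to 91190651, both on the plus strand). *Cxcl1* measured 39.3 and 34.7 CPM in untreated control cells, 52.5 and 16.4 CPM after TGF-β, 26.5 and 34.6 CPM in untreated KO cells, and 2.04 and 46.3 CPM after TGF-β. The treated libraries thus lay on both sides of the untreated ones in each genotype, and the low KO library was at 0.0668 times its untreated mean. *Cxcl5* likewise had its lowest level in treated KO replicate 1, with 145 and 131 CPM in untreated control cells, 175 and 47.4 CPM after TGF-β, 114 and 167 CPM in untreated KO cells, and 18.6 and 155 CPM after TGF-β. Its treated libraries were at 1.27 and 0.344 times the untreated mean in control cells and at 0.132 and 1.10 times in KO cells. No direction could be given for TGF-β: the log2 changes were -0.10 (SE 0.92) and -0.34 (SE 0.94) for *Cxcl1* and -0.30 (SE 0.79) and -0.70 (SE 0.79) for *Cxcl5*, with adjusted p of at least 0.653. Leaving out KO TGF-β replicate 2 gave *Cxcl1* a called log2 change of -3.87 (adjusted p = 0.0207) in KO cells, and leaving out KO TGF-β replicate 1 gave 0.62. For *Cxcl5* these fits gave -2.89 and 0.16, and in control cells -1.55 without treated replicate 1 and 0.35 without replicate 2.

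*Cxcl16* encodes a transmembrane chemokine that ADAM proteases release as a ligand of CXCR6. It measured 12.8 and 9.52 CPM in untreated control cells, 59.4 and 21.3 CPM after TGF-β, 5.51 and 8.51 CPM in untreated KO cells, and 12.3 and 34.1 CPM after TGF-β. All treated libraries lay above all untreated libraries of their genotype, at 5.33 and 1.91 times the untreated mean in control cells and at 1.76 and 4.86 times in KO cells. Treated and untreated libraries did not overlap, in either direction, in 53.7% of all tested genes in control and 56.6% in KO cells. The log2 change of 1.86 (SE 0.55) in control cells had adjusted p = 0.0655, and that of 1.69 (SE 0.58) in KO cells had adjusted p = 0.125. DESeq2 called both, with adjusted p = 0.00214 and 0.00795. Leaving out the low or the high treated library moved the log2 change between 0.92 and 2.41 in control cells and between 0.81 and 2.27 in KO cells. *Cxcl16* overlaps the annotated span of *Zmynd15* on the opposite strand, so its counts are uncertain where the strand was not used.

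*Ccl2* encodes the monocyte attractant that binds CCR2, and had the highest level of the 10 genes per length. It measured 160 and 139 CPM in untreated control cells, 1051 and 367 CPM after TGF-β, 163 and 165 CPM in untreated KO cells, and 109 and 1237 CPM after TGF-β. In control cells both treated libraries were above both untreated ones, at 7.02 and 2.45 times their mean (53.7% of all tested genes had no overlap), whereas in KO cells replicate 1 was below both untreated libraries at 0.664 times and replicate 2 above them at 7.56 times. The fitted log2 changes were 2.24 (SE 0.86, adjusted p = 0.131) and 2.04 (SE 0.85, adjusted p = 0.193). With only the 4 control libraries in the fit, the change in control cells was 2.24 (SE 0.43) and passed the test (adjusted p = 0.0324), a fit that called 3.74% of all genes. Without KO TGF-β replicate 2 the log2 change in KO cells was -0.56. The gene overlaps the annotated span of *Gm17268* on the opposite strand.

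*Ccl20* encodes the ligand of CCR6. Its level was low, 3.02 and 3.05 CPM in untreated control cells, 18.9 and 1.90 CPM after TGF-β, 0.882 and 5.32 CPM in untreated KO cells, and 0.408 and 12.6 CPM after TGF-β. In KO cells both groups were spread widely, with 4 and 40 counts untreated and 5 and 158 counts treated, replicate 2 being the higher in each. The log2 changes with TGF-β were 1.78 (SE 1.28, adjusted p = 0.404) in control cells and 0.95 (SE 1.30, adjusted p = 0.719) in KO cells. They became -0.68 without control TGF-β replicate 1 and -2.95 without KO TGF-β replicate 2.

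*Csf1* encodes macrophage colony-stimulating factor and had the lowest fitted coefficient of variation of the 9 tested genes, although in treated KO cells *Cxcl16* and in untreated cells several members had closer replicates. It measured 112 and 145 CPM in untreated control cells, 223 and 120 CPM after TGF-β, 66.6 and 105 CPM in untreated KO cells, and 63.2 and 221 CPM after TGF-β. The lower treated library of control cells lay between the untreated libraries, and that of KO cells lay just below them. The log2 changes with TGF-β were 0.41 (SE 0.50, adjusted p = 0.637) in control cells and 0.72 (SE 0.51, adjusted p = 0.442) in KO cells. Without the higher treated library they were -0.12 and -0.42.

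*Ptgs2* encodes cyclooxygenase-2. It measured 73.7 and 70.2 CPM in untreated control cells, 671 and 107 CPM after TGF-β, 17.9 and 17.8 CPM in untreated KO cells, and 28.9 and 611 CPM after TGF-β. All 4 treated libraries were above both untreated libraries of their genotype, at 9.32 and 1.49 times the untreated mean in control cells and at 1.62 and 34.2 times in KO cells, beside the 53.7% and 56.6% of all tested genes without overlap in either direction. The log2 changes were 2.43 (SE 1.11, adjusted p = 0.196) in control cells and 4.16 (SE 1.24, adjusted p = 0.0811) in KO cells, of which DESeq2 called the second (adjusted p = 0.0380). Without control TGF-β replicate 1 the change in control cells was 0.56, and without KO TGF-β replicate 2 that in KO cells was 0.72.

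**Figure D2:**
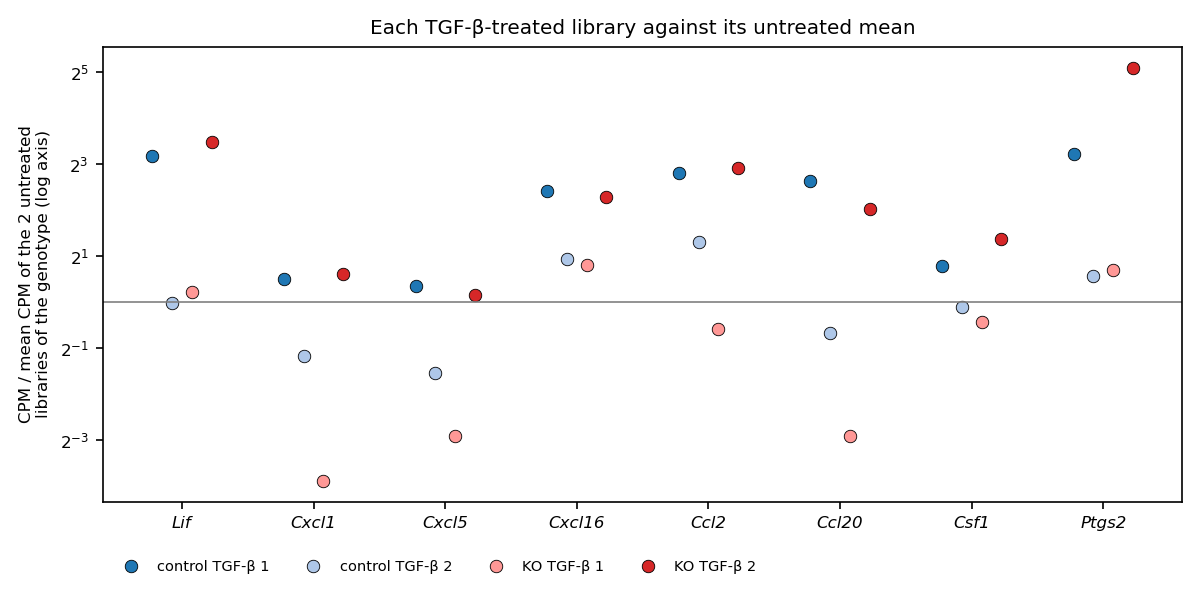
CPM of each TGF-β-treated library divided by the mean CPM of the 2 untreated libraries of its genotype, on a logarithmic axis with a line at 1, for the 8 genes other than *Il6* and *Il11*. Control replicate 1 and KO replicate 2 lie above 1 for all 8 genes, from 1.10 for *Cxcl5* in KO cells to 34.2 for *Ptgs2* in KO cells, while control replicate 2 and KO replicate 1 reach down to 0.344 and 0.0668.

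The first question was how TGF-β for 2 h altered these transcripts in control cells. None of the 9 tested genes was called by edgeR, where 4.69% of all tested genes were called higher and 4.47% lower with TGF-β. *Il11* passed the filter only through its treated libraries and is left out where a count is given over 8 genes. At an unadjusted p under 0.05 there were 2 of the other 8 genes, *Cxcl16* and *Ccl2*, against 26.8% of all tested genes. DESeq2 called 1 gene, *Cxcl16*, and 11.4% of all genes, and limma-voom none beside 8.32%. The fitted change was positive for 6 of the 8 genes and its median was 1.82, beside 0.016 over all genes tested, and the median standard error was 0.89 beside 0.23. The 8 genes were all above both untreated libraries in treated replicate 1, as were 41.4% of all tested genes, but in treated replicate 2 there were 3 above both, 3 below both and 2 between, beside 42.7% of all genes above and 41.1% below. With treated replicate 2 left out, edgeR called 1 gene, *Cxcl16*, and 7.30% of all genes, and with replicate 1 left out none beside 11.1% of all genes. *Cxcl16*, *Ccl2* and *Ptgs2* were called when either treated KO library was left out, a step that leaves the compared libraries as they are. With KO replicate 2 left out, their log2 changes were 1.85, 2.24 and 2.43 with adjusted p = 0.0302, 0.00810 and 0.0403, and the standard error of *Ccl2* was 0.38 in place of 0.86. In that fit 8.35% of all genes were called.

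In KO cells the same treatment gave a like picture with the replicate numbers exchanged. None of the 9 genes was called by edgeR, beside 4.25% of all tested genes called higher and 2.57% lower. At an unadjusted p under 0.05 there were 4 genes, *Lif*, *Cxcl16*, *Ccl2* and *Ptgs2*, against 22.7% of all tested genes, while DESeq2 called *Cxcl16* and *Ptgs2* and 9.49% of all genes, and limma-voom none of the members beside 6.03%. The median log2 change of the 8 genes other than *Il11* was 1.32, beside 0 over all genes tested. In treated replicate 2, 7 of these 8 genes were above both untreated libraries and 1 lay between, whereas in replicate 1 there were 3 above both and 5 below both, beside 39.1% of all genes above in replicate 2 and 38.6% above and 38.6% below in replicate 1. Without replicate 1, edgeR called 5 genes as higher, namely *Lif* (log2 change 3.50), *Cxcl16* (2.27), *Ccl2* (2.94), *Csf1* (1.39) and *Ptgs2* (5.12), and without replicate 2 it called 1, *Cxcl1*, as lower. These fits called 5.99% and 2.09% of all genes. Without either of the treated control libraries it called *Cxcl16* and *Ptgs2* and 10.4% of all genes.

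Without TGF-β, KO and control cells differed most in *Ptgs2*. Its level was 17.8 ± 0.0333 CPM in KO cells and 71.9 ± 2.49 CPM in control cells (SD, n = 2), 4.03-fold lower, and the 81 and 134 counts of the KO libraries and the 611 and 575 of the control libraries differed by far more than the replicates within a group. The SD of 0.0333 is below the counting error of 81 and 134 counts, so it overstates how precise the KO level is. In the fit over all 8 libraries the log2 change of -2.01 (SE 1.18) was not called (adjusted p = 0.478), a fit in which the variance of the gene also covers the treated libraries. Fitted on the 4 untreated libraries alone it was -2.03 (SE 0.16) and was called (adjusted p = 9.56e-06), as were 6.48% of all genes in that fit. With each library left out in turn from the fit over all 8, the change ranged from -2.05 to -1.98. Counts of *Lnc-Nr6a1* were not lower in these untreated KO libraries, so the comparison rests on the labels.

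The other 8 tested genes were closer between the untreated genotypes. *Lif*, *Cxcl1*, *Cxcl5*, *Ccl2* and *Ccl20* had log2 changes from -0.28 to 0.14, each within its standard error. *Cxcl16* had -0.64 (SE 0.60) and *Csf1* -0.58 (SE 0.51), with adjusted p = 0.669 and 0.643, and their untreated libraries did not overlap between the genotypes, nor did those of *Lif*, *Cxcl1* (34.7 against 34.6 CPM at the nearest) and *Ccl2*, a lack of overlap also found in 51.9% of all tested genes. *Il11* had 2 counts in each untreated genotype, and no fold is given. *Csf1* lies on chromosome 3, whose 641 tested genes had a median log2 change of -0.34 in the untreated comparison and -0.34 in the treated one, and the part of this shift in the *Csf1* value was not tested. By edgeR 0 of the 9 genes were called and 0 had an unadjusted p under 0.05, which 14.9% of all tested genes had, beside 1.03% of all tested genes called higher and 0.798% lower in KO cells, and DESeq2 and limma-voom called 0, beside 3.29% and 1.05% of all genes.

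After TGF-β, KO cells and control cells did not differ for these genes beyond the spread of their replicates. The log2 change was negative for 7 of the 8 genes other than *Il11*, with a median of -0.32 beside -0.012 over all genes tested, and it ranged from -0.80 for *Cxcl16* to 0.026 for *Lif*. By edgeR 0 were called and 0 had an unadjusted p under 0.05, which 31.4% of all tested genes had, and DESeq2 and limma-voom called 0, beside 16.7% and 15.9% of all genes. Of the 4 comparisons this one had the most calls over all genes, 8.47% of all tested genes higher and 6.57% lower. The lowest adjusted p was 0.323, for *Cxcl16*, with 40.3 ± 27.0 CPM in control and 23.2 ± 15.4 CPM in KO cells (SD, n = 2). Here the direction depended on the library left out: without KO TGF-β replicate 2, *Cxcl1* (-4.06), *Ccl2* (-2.69) and *Ptgs2* (-3.74) were called as lower in KO cells, with adjusted p = 0.0155, 0.0239 and 0.0488 in a fit that called 3.57% of all genes, and without control TGF-β replicate 1 the same genes had log2 changes of 0.58, 0.89 and 1.60.

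The response to TGF-β was also compared between the genotypes by the interaction term. It called 0 of the 9 genes and 0% of all tested genes with edgeR, and 0 of the 9 with DESeq2 and limma-voom, beside 0.23% and 0% of all genes. No member had an unadjusted p under 0.05, as 8.70% of all tested genes did. *Ptgs2* had the highest estimate, a log2 difference of 1.73 (SE 1.57, adjusted p = 0.793) between the response of KO cells and that of control cells, with the untreated level lower in KO cells.

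**Figure D3:**
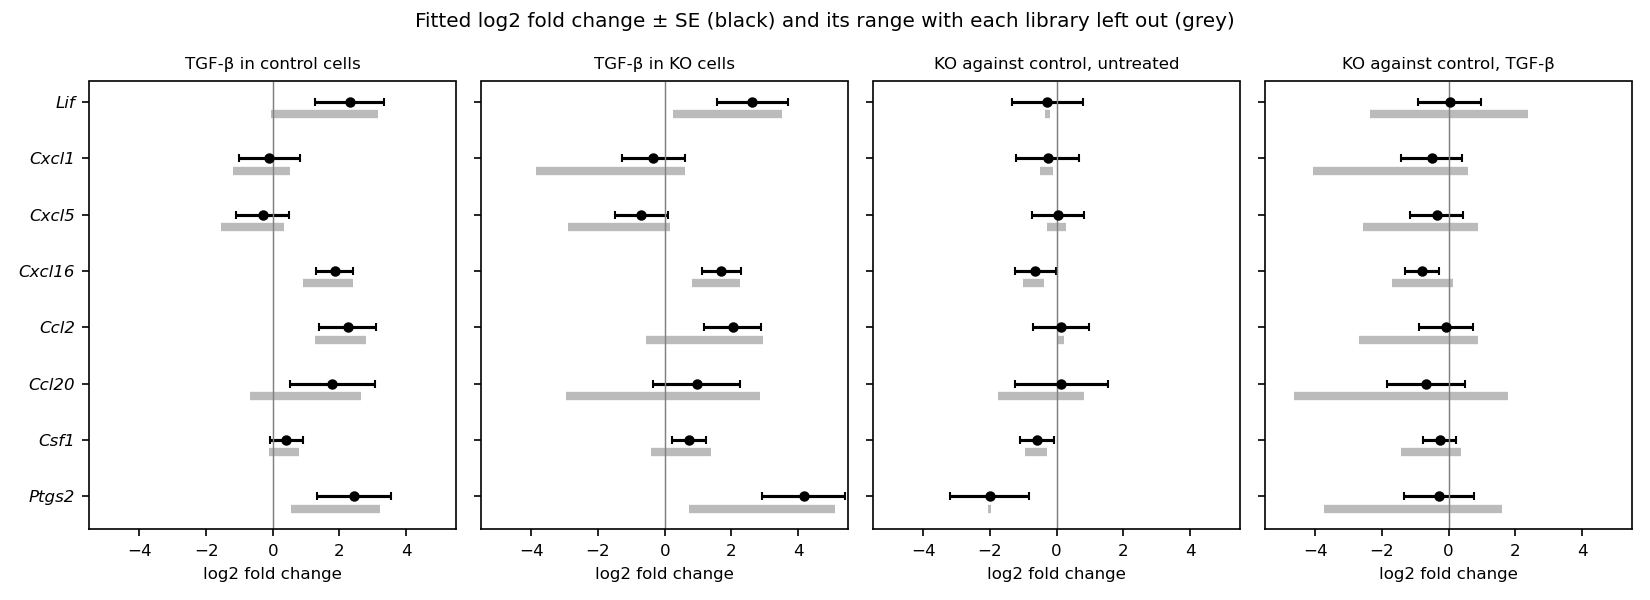
Fitted log2 fold change with its standard error (black points and bars) in the 4 comparisons for the 8 genes other than *Il6* and *Il11*, and the range of that change when each of the 8 libraries is left out in turn (grey bars). In the treated comparison of genotypes all 8 grey bars cross 0, whereas for *Ptgs2* in untreated cells the range is -2.05 to -1.98.

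The spread between the 2 libraries of a group was itself unlike that of other genes. As an absolute difference of log2 CPM, its median over the 8 genes other than *Il6* and *Il11* was 0.17 in untreated control cells and 0.47 in untreated KO cells, beside 0.21 and 0.20 over all tested genes. In treated cells it was 1.77 in control and 3.37 in KO cells, beside 0.33 and 0.22. A difference over 1 occurred in 7 of the 8 genes in treated control cells and in 8 of 8 in treated KO cells, as in 9.60% and 4.26% of all tested genes. *Ptgs2* differed 6.27-fold between the treated control libraries and 21.2-fold between the treated KO libraries, *Cxcl1* 3.20-fold and 22.7-fold, and *Ccl20* 9.94-fold and 30.8-fold. The biological coefficient of variation that edgeR fitted ranged from 0.348 for *Csf1* to 0.832 for *Ccl20*, beside a common value of 0.180, and placed the 9 genes between the 93.0th and 99.9th percentile of all genes.

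The direction of this spread was shared. A difference over 1 in log2 CPM with control replicate 1 above replicate 2 and KO replicate 2 above replicate 1 was found in 7 of the 8 genes and in 135 of all 13028 tested genes (1.04%), and *Csf1* missed it by its 0.89 in control cells. The opposite direction in both genotypes was found in 0 of the 8 genes and in 87 of all genes (0.668%), and the same replicate number higher in both genotypes in 0 of the 8 and in 19 of all genes (0.146%). The sources used here give no processing date, culture or lane for the libraries, and what the high libraries have in common was not tested. Treatments and replicate numbers were used as labelled, and whether both cultures of a treated group had the same exposure was not tested, so the treated means and TGF-β fold changes of these genes average 2 unlike libraries. Exchanged replicate numbers within a genotype, also not tested for, would leave those means as they are.

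**Figure D4:**
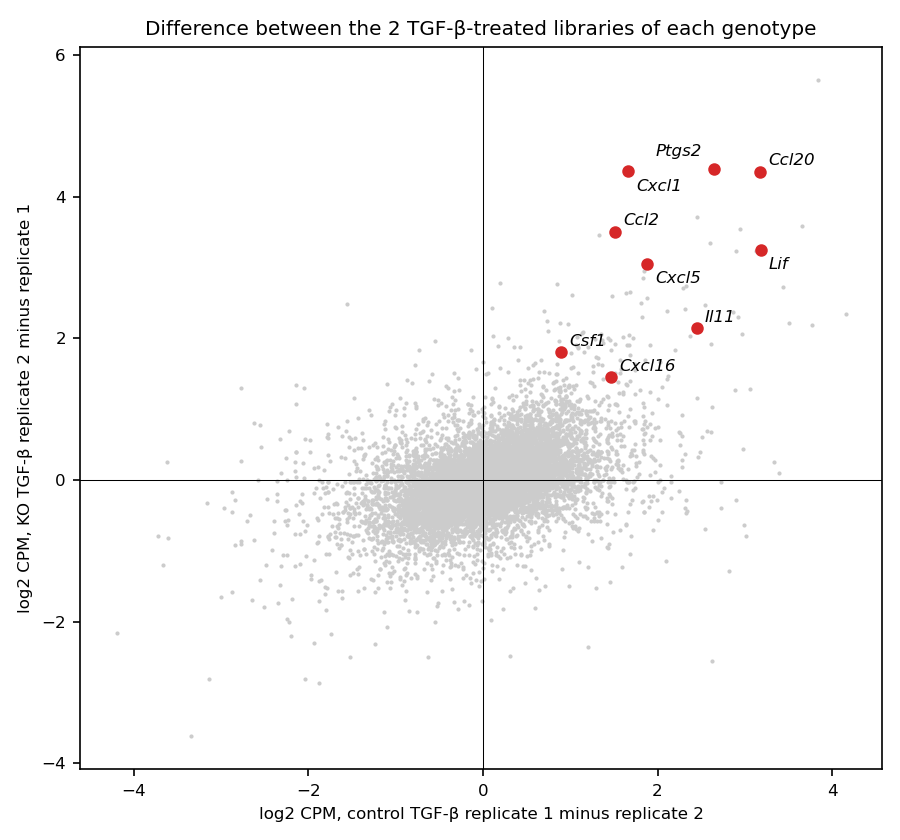
Difference in log2 CPM between the 2 TGF-β-treated libraries, control replicate 1 minus 2 on the horizontal axis and KO replicate 2 minus 1 on the vertical axis, for the 13028 tested genes (grey) and the 9 tested cytokine, chemokine and *Ptgs2* genes (red). The 8 red points other than *Il11*, which passed the filter only through its high libraries, lie in the upper right corner, for example at 0.89 and 1.80 for *Csf1* and at 3.17 and 4.35 for *Ccl20*.

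Per kilobase of exon, the order of mean levels in untreated control cells was *Ccl2* (132 CPM per kb), *Cxcl5* (83.3), *Cxcl1* (38.8), *Csf1* (24.5), *Ptgs2* (17.4), *Lif* (5.45), *Cxcl16* (3.69), *Ccl20* (2.13) and *Il11* (0.0914), and no neighbours from *Ccl2* to *Il11* overlapped in their 2 libraries. In untreated KO cells *Ptgs2* stood lower, at 4.30 CPM per kb, next to *Lif* at 4.49, and the libraries of *Cxcl16* and *Ccl20* overlapped. In control TGF-β replicate 1 *Ptgs2* was second at 162 CPM per kb, behind *Ccl2* at 924 and ahead of *Cxcl5* at 106, and in KO TGF-β replicate 2 the same 3 genes led at 1087, 147 and 93.6. In the remaining treated libraries *Ptgs2* was at 25.8 and 6.96 CPM per kb, behind *Cxcl5* at 28.6 and 11.2. Some of the order held in each of the 4 treated libraries: *Ccl2* led, *Cxcl5* was above *Cxcl1*, *Lif* and *Cxcl16*, *Csf1* was above *Cxcl16*, and *Ccl20* followed by *Il11* came last of the tested genes.

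Of 16 receptor genes for these ligands, prostaglandins and thromboxane, 4 passed the filter and 0 were called in any of the 4 comparisons by edgeR, beside 9.16% and 6.82% of all tested genes called for TGF-β in control and KO cells and 1.83% and 15% between untreated and treated genotypes. An unadjusted p under 0.05 was found in 1 of the 4 for TGF-β in control cells and in 1 between treated genotypes, beside 26.8% and 31.4% of all tested genes. *Il6st*, which encodes gp130, had 783 to 3222 counts, *Il6ra* 57 to 145, *Il11ra1* 45 to 152 and *Ptger4*, a prostaglandin E2 receptor, 10 to 76. The largest change was that of *Il6ra* in control cells, -0.71 (SE 0.27, adjusted p = 0.127). *Cxcr6*, *Ccr2* and *Ccr6* had 0 counts in all libraries, *Cxcr2* and *Lifr* at most 4, and *Csf1r* at most 15.

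A list of interleukin-6 family signalling genes, which also holds the ligands *Clcf1* and *Cntf*, differed widely in how close its treated libraries lay. Of 11 tested genes, 2 rose with TGF-β in control cells and 1 in KO cells, beside 4.69% and 4.25% of all genes, and 1 was higher and 1 lower in KO than in control cells after TGF-β, beside 8.47% and 6.57%, while 0 were called between untreated genotypes by edgeR. An unadjusted p under 0.05 was found in 3 and 7 of the 11 for TGF-β in control and KO cells and in 2 and 4 between untreated and treated genotypes, beside 26.8%, 22.7%, 14.9% and 31.4% of all genes. *Jak2*, a kinase bound to gp130, measured 80.3 and 97.8 CPM in untreated control cells and 231 and 310 CPM after TGF-β, 75.6 and 59.1 CPM in untreated KO cells and 155 and 160 CPM after TGF-β. No library of its treated groups overlapped an untreated one of its genotype, as in 53.7% of all tested genes in control and 56.6% in KO cells, and the log2 changes were 1.60 (SE 0.19, adjusted p = 0.00214) in control cells, 1.23 (SE 0.19, adjusted p = 0.00652) in KO cells and -0.78 (SE 0.19, adjusted p = 0.0250) between KO and control cells after TGF-β. *Stat3* rose by 0.65 (SE 0.16, adjusted p = 0.0392) in control cells, beside 0.59 (SE 0.16, adjusted p = 0.0628) in KO cells. The kinase *Tyk2* was higher in KO cells after TGF-β by 0.83 (SE 0.16, adjusted p = 0.0123), beside 0.61 (SE 0.17, adjusted p = 0.113) untreated. Other genes of the list were spread in the crossed order of the cytokines, control replicate 1 above 2 and KO replicate 2 above 1: the log2 CPM differences were 3.12 and 3.23 for *Cish* and 1.10 and 0.95 for *Socs3*, both feedback inhibitors, and 0.85 and 0.67 for *Clcf1*.

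Among 41 other cytokine and chemokine genes, 40 were in the table and 14 passed the filter. In control cells 2 of the 14 rose with TGF-β, in KO cells 1 rose, and 1 was higher in KO than in control cells after TGF-β, beside 4.69%, 4.25% and 8.47% of all genes, with none called lower or between untreated genotypes by edgeR, where 5 had an unadjusted p under 0.05 beside 14.9% of all genes. *Ccl9*, a myeloid cell attractant, had 9.05 and 15.1 CPM in untreated control cells and 32.4 and 30.9 CPM after TGF-β, 12.6 and 14.4 CPM in untreated KO cells and 44.6 and 49.3 CPM after TGF-β. Its log2 changes were 1.39 (SE 0.24, adjusted p = 0.0100) and 1.79 (SE 0.24, adjusted p = 0.00332), and its treated libraries lay close together in each genotype. *Spp1*, which encodes osteopontin, rose by 0.91 (SE 0.12, adjusted p = 0.00308) in control cells, beside 0.43 (SE 0.12, adjusted p = 0.0656) in KO cells. *Cx3cl1*, a membrane-bound chemokine, was higher in KO than in control cells after TGF-β by 1.76 (SE 0.37, adjusted p = 0.0150), beside 1.41 (SE 0.38, adjusted p = 0.114) untreated.

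Of 14 genes of prostaglandin synthesis, transport and degradation other than *Ptgs2*, 10 passed the filter and 0 were called by edgeR for TGF-β in either genotype or between untreated genotypes, beside 9.16%, 6.82% and 1.83% of all tested genes. In these comparisons 2, 0 and 4 of the 10 had an unadjusted p under 0.05, beside 26.8%, 22.7% and 14.9% of all tested genes. After TGF-β, KO cells had higher *Ptgds*, a prostaglandin D synthase, by 1.56 (SE 0.32, adjusted p = 0.0138) and higher *Slco2a1*, a prostaglandin transporter, by 1.28 (SE 0.22, adjusted p = 0.00700), and lower *Pla2g4a*, which releases arachidonic acid, by a log2 change of -0.82 (SE 0.21, adjusted p = 0.0282), so that 2 of 10 were higher and 1 lower beside 8.47% and 6.57% of all genes. Between untreated genotypes *Ptgds* had a log2 change of 1.36 (SE 0.33, adjusted p = 0.0801), *Slco2a1* 0.69 (SE 0.21, adjusted p = 0.164) and *Pla2g4a* -0.64 (SE 0.21, adjusted p = 0.192), and the interaction called 0 genes. The constitutive cyclooxygenase *Ptgs1* had 169 to 514 counts, the inducible prostaglandin E synthase *Ptges* at most 8 and the degrading enzyme *Hpgd* at most 1.

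Regulators of cytokine mRNA decay were all measured, 9 of 9. With TGF-β, 1 rose and 2 fell in control cells, beside 4.69% and 4.47% of all genes, and 2 rose in KO cells, beside 4.25%. After TGF-β 2 were higher in KO than in control cells, beside 8.47%, with 0 called between untreated genotypes by edgeR, 1 having an unadjusted p under 0.05 beside 14.9% of all genes. *Zfp36*, which encodes tristetraprolin, a protein that promotes the decay of AU-rich mRNAs, fell in control cells from 15.7 and 15.9 CPM to 6.37 and 5.61 CPM, a log2 change of -1.39 (SE 0.26, adjusted p = 0.0144). In KO cells it measured 9.26 and 11.03 CPM untreated and 6.93 and 9.38 CPM after TGF-β, a log2 change of -0.32 (SE 0.26, adjusted p = 0.512), and the untreated level was not called different from that of control cells (log2 change -0.63, adjusted p = 0.296). *Khsrp* fell by 0.85 in control cells (SE 0.19, adjusted p = 0.0275), beside a log2 change of -0.21 in KO cells (adjusted p = 0.553). *Rc3h1* rose by 0.74 in control (adjusted p = 0.0275) and 0.88 in KO cells (adjusted p = 0.0152). *Zfp36l2* rose by 1.33 in KO cells (SE 0.18, adjusted p = 0.00331), beside 0.58 (SE 0.18, adjusted p = 0.0728) in control cells. Of 4 genes of ectodomain shedding, the CXCL16-cleaving proteases *Adam10* and *Adam17* and the iRhom genes *Rhbdf1* and *Rhbdf2*, whose products support ADAM17, 1 was called in any comparison, *Rhbdf1*, higher in KO than in control cells after TGF-β by 0.90 (SE 0.25, adjusted p = 0.0366), a direction called in 8.47% of all genes.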

How the data were processed

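RNA-seq was analysed for 8 libraries of NMuMG cells, 2 in each of 4 groups taken from the labels. The values deposited by the authors are raw gene counts, 1 column a library, and all columns were used. By the study's methods, reads were aligned with subjunc to the mm10 and mm9 assemblies and duplicates were removed, a step that can lower the counts of abundant short transcripts such as chemokines, and DESeq2 was used for testing. The submitters' processing notes name HISAT2 and limma. The counting tool and its strand setting were not given in the sources used here, and labels and methods differ on RNA extraction, library kit and read layout. The gene identifiers matched GENCODE vM1 on NCBIM37, which gave symbols, positions and exon lengths.

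Totals ranged from 4297832 to 13574397 counts. Shares are given without an error, standard errors cover the fitted spread between libraries, and SDs are those of the 2 libraries of a group. From the counts, edgeR 4.0.16 in R 4.3.3 (filterByExpr, TMM, glmQLFit and glmQLFTest on 4 groups, 13028 genes, 4 residual degrees of freedom) gave fold changes and Benjamini-Hochberg adjusted p-values over all genes tested, called at 0.05 and a log2 change of 0.5 (the interaction by adjusted p alone). Alternatives were DESeq2 1.42.0, limma-voom 3.58.1, other size factors, other filters, fits on the compared libraries alone, thinning to the smallest total, a replicate block and each library left out, where a lone library of a group is assumed to vary like the other groups. Differences in log2 CPM used a prior count of 2. The scripts were tested on simulated data. Promoters were RefSeq windows on GRCm38.p6, a build not mixed with NCBIM37 positions. The members and the gene lists around them (receptors, interleukin-6 family signalling, other cytokines, prostaglandin pathway, mRNA decay, ectodomain shedding, and epithelial, leukocyte, fibroblast and endothelial markers) were chosen with earlier results of these data known. The genes planned for naming were all members, the receptors that passed the filter, up to 4 called genes per list by size of change, and for each member the gene with the highest Pearson correlation. Genes named for low or absent counts were chosen after their values were seen. So were *Cish*, *Socs3* and *Clcf1*, which were not called and were named for the order of their treated libraries.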

Additional observations from a re-analysis of the deposited data

How the results depend on the processing

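The count of members called moved from the 0 of the main test as follows. DESeq2 called 1 for TGF-β in control cells and 2 for TGF-β in KO cells (11.4% and 9.49% of all genes, against 9.16% and 6.82% in the main test), and limma-voom none (8.32% and 6.03%). Without the filter on low counts edgeR called 6 for TGF-β in control cells, 6 in KO cells, 2 between untreated genotypes (*Ptgs2* and *Csf1*), 1 between treated genotypes (*Cxcl16*) and 1 by the interaction (*Ptgs2*), and the cause was not tested. That fit called 9.88%, 8.95%, 3.69%, 13.8% and 1.03% of its 20463 genes. The main test called 9.16%, 6.82%, 1.83%, 15% and 0% of 13028 genes. Fits on the compared libraries alone called 1 for TGF-β in control cells (*Ccl2*) and 1 between untreated genotypes (*Ptgs2*), beside 3.74% and 6.48% of all genes in those fits. With a library left out the count ranged from 0 to 3 for TGF-β in control cells, 0 to 5 in KO cells and 0 to 3 between treated genotypes (1.05 to 11.1%, 0.995 to 10.4% and 3.57 to 20.7% of all genes), and remained 0 between untreated genotypes and for the interaction. The replicate block called 0 members in each comparison, and of all genes 6.38% and 5.19% for TGF-β in control and KO cells, 1.15% and 11.4% between untreated and treated genotypes and 0% by the interaction. The replicate numbers were not taken as pairs: deviations of same-numbered libraries correlated over genes with r = 0.297 for TGF-β in control cells, -0.00915 in KO cells, 0.0980 between untreated and -0.473 between treated genotypes. A crossed replicate block, chosen after seeing the data, called 0 members between treated genotypes, 2 for TGF-β in KO cells and 0 by the interaction, and 21.6%, 11.9% and 0.0384% of all genes, against 15% in the main test between treated genotypes.

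Directions also changed. *Ccl20* between untreated genotypes was -0.20 with limma-voom, -0.042 with the replicate block and -0.29 when thinned, and -0.15 for TGF-β in KO cells with limma-voom. *Cxcl5* between untreated genotypes was -0.0025 without the filter, -0.0074 with the replicate block and -0.014 when thinned. *Lif* between treated genotypes was -0.018 with limma-voom and -0.036 with the replicate block. With 1 library left out, these log2 changes spanned 0. For TGF-β in control cells they were *Lif* -0.042 to 3.16, *Cxcl1* -1.19 to 0.50, *Cxcl5* -1.55 to 0.35, *Ccl20* -0.68 to 2.64 and *Csf1* -0.12 to 0.79. For TGF-β in KO cells they were *Cxcl1* -3.87 to 0.62, *Cxcl5* -2.89 to 0.16, *Ccl2* -0.56 to 2.94, *Ccl20* -2.95 to 2.87 and *Csf1* -0.42 to 1.39. For KO against control, untreated they were *Il11* -3.40 to 3.80, *Cxcl5* -0.28 to 0.28 and *Ccl20* -1.77 to 0.81. For KO against control after TGF-β they were *Il11* -2.86 to 1.29, *Lif* -2.36 to 2.39, *Cxcl1* -4.06 to 0.58, *Cxcl5* -2.57 to 0.89, *Cxcl16* -1.70 to 0.14, *Ccl2* -2.69 to 0.89, *Ccl20* -4.63 to 1.78, *Csf1* -1.43 to 0.38 and *Ptgs2* -3.74 to 1.60. For the other members in these comparisons, *Il11* between untreated genotypes left aside, the direction held in the settings run. With 2 libraries a group, differences within the replicate spread of these genes were not detectable, and *Il6* and *Il11* were limited by counts.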

Other observations

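Genes outside the list had the same order of treated libraries, and they were singled out after their values were seen. *Ccl7*, a monocyte attractant, measured 13.3 and 11.4 CPM in untreated control cells, 139 and 55.0 CPM after TGF-β, 6.17 and 10.5 CPM in untreated KO cells, and 14.9 and 166 CPM after TGF-β. *Cish*, a feedback inhibitor of cytokine receptors, had 5 and 2 counts in untreated control libraries, 431 and 42 after TGF-β, 0 and 11 in untreated KO libraries, and 36 and 370 after TGF-β. The interferon-inducible chemokine *Cxcl10* had at most 2 counts in untreated libraries, 57 and 5 in treated control libraries, and 0 and 23 in treated KO libraries. The tight junction gene *Cldn4* had at most 1 count in untreated libraries, 126 and 13 in treated control libraries, and 30 and 162 in treated KO libraries.

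For each tested member, the gene whose log2 CPM was most alike over the 8 libraries was named as a description, without a test. The points share library depth and group. Pearson's r was 0.981 for *Ptgs2* with *Eif1a*, a translation initiation factor (Spearman's rank correlation 0.976, and r = 0.941 without the 2 libraries farthest from the median). *Cxcl16* went with *Mir17hg*, a microRNA host gene (r = 0.990, rank correlation 1, r = 0.969 without those libraries), and *Cxcl1* with *Net1* (r = 0.977, rank correlation 0.976, r = 0.739). *Lif* with the protease gene *Mmp12* had r = 0.997 but a rank correlation of 0.325 and r = -0.74 without control TGF-β replicate 1 and KO TGF-β replicate 2, so the likeness rested on those libraries. The others were *Arf2* for *Il11* (0.978), *Gm11974* for *Cxcl5* (0.973), *Cnn2* for *Ccl2* (0.977), *Gm16516* for *Ccl20* (0.988) and *1810029B16Rik* for *Csf1* (0.971). Without the 2 libraries farthest from the median of the member, r was 0.920, 0.680, 0.808, 0.974 and 0.945 in the same order.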
